A study of Homo sapiens with 4 samples.

Results

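The levels of 10 genes of inflammatory and stress signalling were followed in K562 cells exposed to AC-1041. The genes were those of the CXC chemokines CXCL8, CXCL1, CXCL2 and CXCL3, the CC chemokine CCL2, the cytokines IL6, LIF and TNF, the stress-induced factor GDF15 and the receptor chain IL20RB. They were chosen from earlier results of these same arrays, so their ratios are given as a description. The fit over all probes includes them, but their calls on this contrast are no independent evidence. Counts of these calls stand beside the share of all probes, and single calls are named as a description only. Each of the 10 genes, of 14257 genes on the array, was represented by 1 probe, and CXCL8 was listed in the files under its older name IL8. K562 is an established line of human leukemic cells that keep many features of red cell precursors. The treated cells received AC-1041, which the study counts among its thalidomide analogs, for 4 h. The labels name the control cells as untreated and the study's methods name DMSO. The labels state no dose, and the study's methods and results describe it differently, so none is given here. RNA of treated and control cells was amplified, labelled with Cy5 and Cy3 and competitively hybridised on 4 arrays, with the treated RNA in Cy5 on arrays 1 and 2 and in Cy3 on arrays 3 and 4. The sources do not say which cultures went on which array, so the spread over the 4 arrays may be partly technical.

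The arrays of the 2 dye orientations stood apart, and this bears on several of the genes. Over the 8852 probes tested, log2 ratios of treated over control cells correlated at 0.81 between arrays 1 and 2 and at 0.94 between arrays 3 and 4, while the correlations between the orientations lay between -0.29 and -0.12. These correlations are across probes, which are not independent replicates. The 77 spots that the files type as negative controls (the negative hybridization controls left out) were brighter and more scattered on arrays 1 and 2. Their mean intensity in the treated and the control channel was 319 against 358 on array 1, 364 against 342 on array 2, 144 against 117 on array 3 and 136 against 122 on array 4. Arrays 1 and 2 shared a row of the slide and arrays 3 and 4 the other row, so dye orientation, slide position and array quality cannot be told apart. For this reason each of the 10 genes is given on every array, while genes of the wider pathways are given on every array in part and otherwise by mean and SD. Unless stated otherwise, values are log2 ratios of treated to control cells after background correction and loess normalization, and a probe counts as detected in a channel where the scanner software marked it as well above background. Limma p-values come, where no other fit is named, from a fit with a dye term beside the treatment term. Their error rests on differences between arrays of the same orientation, so they do not measure the SD over all arrays printed beside them.

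Chemokines are small secreted proteins that attract leukocytes along a gradient. The CXC ligands described here signal to CXCR2, and CXCL8 also to CXCR1, both neutrophil receptors, whereas CCL2 attracts monocytes through CCR2. Transcription of these genes is commonly switched on by NF-kappaB and AP-1, and many of their mRNAs carry AU-rich elements that make them short-lived. IL6 and LIF signal through gp130 and STAT3, TNF is an activator of NF-kappaB, GDF15 is a distant TGF-beta relative produced by stressed cells and sensed by GFRAL in the brainstem, and IL20RB pairs with other chains to form receptors for IL-19, IL-20 and IL-24.

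The probes of CXCL2 and CXCL3 are shown because these genes are close relatives and their ratios were alike. On hg18 both lie on the minus strand of chromosome 4, where the CXCL2 probe spans 75183206 to 75183265 and the files place the CXCL3 probe within 75121855 to 75122729, a span longer than the probe. Bases 29 to 60 of the CXCL2 probe and bases 1 to 32 of the CXCL3 probe cover the same stretch with 2 differences, G46C and A56C, in which the CXCL2 base comes first, the position is counted from the 5′ end of the CXCL2 probe and the CXCL3 base comes last. These positions are in capitals, and the 32 overlapping bases were 93.8% identical. The files list the CXCL3 transcript NM_002090 beside the CXCL2 transcript for the CXCL2 probe. How far each probe binds the mRNA of the other gene was not tested, so the values of CXCL2 and CXCL3 may be partly shared. No other pair of the 10 probes shared a run of more than 8 bases.
CXCL2 probe: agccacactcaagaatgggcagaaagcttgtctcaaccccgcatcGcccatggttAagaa
CXCL3 probe: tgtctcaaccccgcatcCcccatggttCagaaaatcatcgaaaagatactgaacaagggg

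The promoters of CXCL1, CXCL2, CXCL3 and CXCL8 are shown because these 4 genes carried the higher chemokine values, and that of IL20RB because it was among the most even of the higher genes. RefSeq promoters of GRCh38.p14, from 250 bases before to 50 after the start site, were at hand for 8 of the 10 genes. CCL2 and LIF were not among them. The motif GGNNTTTCC, of the NF-kappaB type, was searched on both strands and occurred in 5 of the 8 promoters, those of CXCL1, CXCL2, CXCL3, CXCL8 and IL6, against 6.26% of all 35116 promoters of the same length. CXCL1, CXCL2 and CXCL3 each held it at 2 positions. Their promoter stretches were near copies of each other, so these genes are not independent occurrences to set against that share. The AP-1 type motif TGANTCA was found in CXCL8, against 7.71% of all promoters, and the C/EBP-ATF type motif TGATGNAA in IL20RB, against 3.62%. The letters TGACGT, part of a cyclic AMP response element, were found upstream of the printed stretch in CXCL2 and IL6, against 7.98%. GDF15 and TNF held none of the 4 letter patterns in this window. The stretches below are the 150 bases before the start site, printed 5′ to 3′ on the strand of the gene, with the matches in capitals. In CXCL8 the AP-1 match begins at position -137 from the start site and the NF-kappaB type match at -91.
CXCL8, chr4:73740419-73740568, plus strand: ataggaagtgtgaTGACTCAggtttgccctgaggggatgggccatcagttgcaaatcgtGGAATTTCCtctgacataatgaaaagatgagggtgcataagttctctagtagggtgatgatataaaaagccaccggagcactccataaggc
CXCL1, chr4:73869243-73869392, plus strand: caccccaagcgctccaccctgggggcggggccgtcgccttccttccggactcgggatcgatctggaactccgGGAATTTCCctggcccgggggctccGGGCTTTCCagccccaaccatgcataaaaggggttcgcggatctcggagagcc
CXCL2, chr4:74099196-74099345, minus strand: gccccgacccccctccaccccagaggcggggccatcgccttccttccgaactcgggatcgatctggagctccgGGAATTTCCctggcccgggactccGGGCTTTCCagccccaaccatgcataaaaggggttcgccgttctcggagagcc
CXCL3, chr4:74038690-74038839, minus strand: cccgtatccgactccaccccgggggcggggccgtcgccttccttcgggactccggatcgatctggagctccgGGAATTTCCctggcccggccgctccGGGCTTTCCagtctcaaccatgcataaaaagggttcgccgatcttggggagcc
IL20RB, chr3:136957833-136957982, plus strand: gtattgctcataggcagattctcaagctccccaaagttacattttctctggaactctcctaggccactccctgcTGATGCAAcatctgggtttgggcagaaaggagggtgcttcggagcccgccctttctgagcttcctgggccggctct

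The stretches of CXCL1, CXCL2 and CXCL3 were near copies of each other, with 89.3% of bases identical between CXCL1 and CXCL2, 88.7% between CXCL1 and CXCL3 and 86.7% between CXCL2 and CXCL3. The CXCL8 stretch shared from 47.3% to 48.7% of bases with these 3 after alignment, and that of IL20RB from 49.3% to 50.7%. A match of letters is a description of the sequence and not a bound site.

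Of the 10 genes, 9 passed the filter on dim probes, which asked for detection on at least 2 arrays, in either channel, and TNF did not. At an adjusted p under 0.05 in limma (Benjamini-Hochberg over the 8852 probes), 6 of the 9 genes were called higher in treated cells, where 24.3% of all probes were. The 2 called lower were CCL2 and IL6, where 13.0% of all probes were called lower, and LIF was not called. Since the genes were chosen on this contrast, nothing is read from these counts. Of the 9 genes 5 were higher on every array, against 15.7% of all probes, and 2 were lower on every array, against 9.49%. The median log2 ratio was 1.31 over the 9 genes and 0.02 over all probes tested. The median of the genes was 0.23 on arrays 1 and 2 alone, 0.89 on arrays 3 and 4 alone and 0.87 over all 10 genes, TNF included. Only CXCL2, CXCL3, GDF15 and IL20RB were detected in both channels on all 4 arrays. In RNA of whole cultures, a change in transcripts per cell and a change in the mix of cells cannot be told apart.

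**Figure D1:**
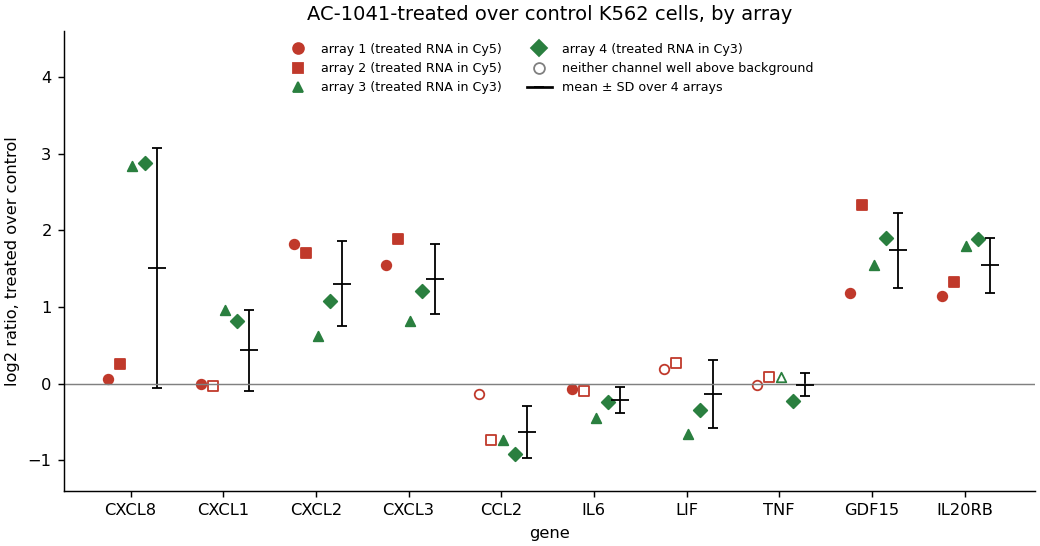
Log2 ratio of treated to control cells (vertical axis) for the 10 genes (horizontal axis) on each of the 4 arrays, in red where the treated RNA carried Cy5 and in green where it carried Cy3, with the mean and SD in black. Open symbols mark arrays with neither channel well above background. The 2 green points of CXCL8 lie at 2.84 and 2.88 and its red points at 0.05 and 0.26, whereas the points of GDF15 and IL20RB all lie above 1.

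CXCL8, the main neutrophil attractant of the set, had a log2 ratio of 0.05, 0.26, 2.84 and 2.88 on arrays 1 to 4. The gene was thus 7.25-fold higher in treated cells on the arrays with the treated RNA in Cy3 and 1.11-fold on the others, and the values of the 2 orientations did not overlap. The mean was 1.51 ± 1.56 (SD, n = 4 arrays), an SD as large as the mean. Before normalization, the mean intensity in the treated and the control channel was 1423 against 1379 on the first array, 2431 against 1420 on the second, 5653 against 723 on the third and 5956 against 810 on the fourth. The probe was detected in the treated channel of all 4 arrays and in the control channel of 3. Its values also differed between orientations in the signals that the scanner software had corrected, with 0.13 and 0.40 on arrays 1 and 2 and 3.04 and 3.03 on arrays 3 and 4. The CXCL8 probe (chromosome 4 of hg18, 74828129 to 74828188) had a GC content of 16.7%, against a median of 43.3% for all gene probes. Only 0.063% of gene probes had a GC content as low. Whether probe composition has a part in the difference was not tested.

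A separate term of the fit measured the difference between the orientations, which was not the contrast the genes were chosen on. For CXCL8 it was 2.70 on the log2 scale, as Cy3 minus Cy5 arrays (limma adjusted p = 5.7e-06), and 0.802% of all probes tested had a difference of at least this size. The term was past an adjusted p of 0.05 for 6 of the 9 genes, against 58.2% of all probes. The ratio was larger on the Cy3 arrays for CXCL8, CXCL1 and IL20RB, and larger on the Cy5 arrays for CXCL2, CXCL3 and LIF. For GDF15 the difference was -0.04, with a limma adjusted p of 0.93. This depended on the loess normalization. With median centring the log2 ratios of GDF15 were 1.67 and 2.76 on arrays 1 and 2 and 0.78 and 0.91 on arrays 3 and 4.

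**Figure D2:**
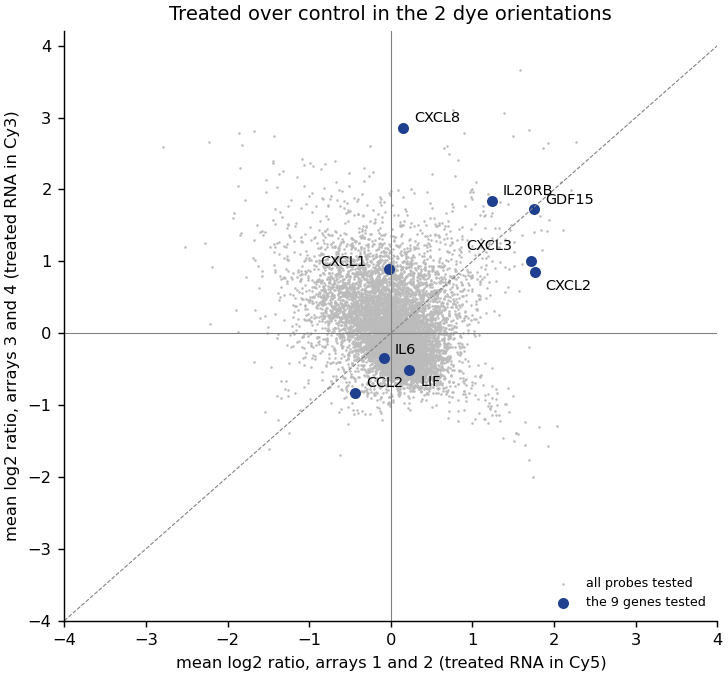
Mean log2 ratio of treated to control cells on arrays 1 and 2 (horizontal axis) and on arrays 3 and 4 (vertical axis) for the 8852 probes tested (grey) and the 9 genes that could be tested (blue), with the line of equal values dashed. After loess normalization GDF15, at 1.76 and 1.72, lies next to the line, and CXCL8, at 0.15 and 2.86, lies far above it.

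CXCL1, a CXCR2 ligand (probe at 74955714 to 74955773 of the same chromosome), had a log2 ratio of -0.01 and -0.04 on arrays 1 and 2 and of 0.96 and 0.82 on arrays 3 and 4. As for CXCL8, the higher values were those of the Cy3 arrays, and the groups of arrays did not overlap. Its mean was 0.43 ± 0.53 (SD, n = 4), and its mean over arrays 1 and 2 alone was -0.02, opposite in sign. The signals corrected by the scanner software gave 0.21, 0.28, 1.17 and 0.96 on arrays 1 to 4, all above 0, with a mean of 0.66. The difference between orientations was 0.91, with a limma adjusted p of 0.00062. CXCL1 was detected in the treated channel of 3 arrays and in the control channel of 2, and on array 2 in neither.

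CXCL2 had a log2 ratio of 1.82 and 1.70 on arrays 1 and 2 and of 0.63 and 1.08 on arrays 3 and 4. CXCL3 had 1.55 and 1.89 on arrays 1 and 2 and 0.81 and 1.21 on arrays 3 and 4. Both CXCR2 ligands were higher in treated cells on every array, more so on the Cy5 arrays, the reverse of CXCL8 and CXCL1. Their means were 1.31 ± 0.56 for CXCL2, or 2.47-fold, and 1.36 ± 0.46 for CXCL3, or 2.57-fold (SD, n = 4), and the means of these genes differed by far less than either SD. Limma adjusted p-values for the difference between orientations were 0.0023 for CXCL2 and 0.0095 for CXCL3.

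The genes that follow come from lists of the wider pathways, and their counts of calls stand beside the shares over all probes, 24.3% higher and 13.0% lower. The lists too were chosen with earlier results of these data known. Their calls and adjusted p-values are therefore a description and no independent evidence. The other CXC ligands gave little signal. Of 13 on a list of further CXC chemokines, all 13 had a probe, 12 were never detected on any array in either channel, and PF4 and PPBP, the platelet chemokines, were among these. CXCL16, which also exists as a membrane-bound form, was the only one tested and had a log2 ratio of 0.06 ± 0.52 (limma adjusted p = 0.66). Among 25 further CC, C and CX3C ligands with a probe, 18 were never detected and 3 were tested, of which 0 were higher and 1 was lower. That gene was CCL26, an eosinophil attractant also called eotaxin-3. Its log2 ratio was -0.74, -1.21, -0.09 and -0.18 on arrays 1 to 4 (limma adjusted p = 0.0015).

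Treated cells had less CCL2 signal than control cells on each array. Its log2 ratio was -0.13, -0.74, -0.74 and -0.92 on arrays 1 to 4, so that array 1 stood nearest to 0. The mean was -0.63 ± 0.34 (SD, n = 4), which put control cells 1.55-fold above treated cells. The probe, on chromosome 17 of hg18 from 29608163 to 29608222, was dim. Mean intensities in the treated and the control channel were 510 against 597 on the first array, 426 against 599 on the second, 367 against 543 on the third and 329 against 607 on the fourth. It was detected in both channels of arrays 3 and 4 and in neither channel of arrays 1 and 2, where the negative control spots were brighter. The direction thus rests on 2 arrays of the same dye orientation where the probe was measurable, on which the mean log2 ratio was -0.83, against -0.43 on arrays 1 and 2.

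Among 23 chemokine receptor genes, 8 were tested, 1 was higher and 0 were lower. CXCR4, the receptor of CXCL12 that holds blood precursors in the marrow, had a log2 ratio of 0.91, 1.38, 0.63 and 0.92 on arrays 1 to 4. It was 1.95-fold higher in treated cells, at 0.96 ± 0.31 (SD, n = 4; limma adjusted p = 0.00016). CXCR4 was detected in the treated channel of 3 arrays and in the control channel of 2. CXCR2, through which CXCL1, CXCL2, CXCL3 and CXCL8 act, was not detected in any channel of any array.

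The 3 cytokine genes of acute inflammation were dim. IL6 had a log2 ratio of -0.07 and -0.10 on arrays 1 and 2 and of -0.45 and -0.24 on arrays 3 and 4, all of them below 0. The mean was -0.22 ± 0.17 (SD, n = 4), smaller in size than any other called value of the set. Its probe (chromosome 7, 22737732 to 22737791) was detected in both channels of 3 arrays, and its mean intensity was between 436 and 1551 in treated and between 530 and 1260 in control cells. The mean of IL6 was -0.36 with the signals corrected by the scanner software, -0.18 with median centring, -0.16 without array 3 and -0.27 without array 4, and IL6 was not called in any of these fits. The signals corrected by the scanner software put array 1 above 0, at 0.11.

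LIF, a gp130 cytokine that keeps progenitor cells undifferentiated in several tissues, had log2 ratios of 0.19 and 0.26 on arrays 1 and 2 and of -0.66 and -0.35 on arrays 3 and 4. After loess normalization the signs thus followed the dye orientation, and the mean was -0.14 ± 0.44 (SD, n = 4). It was -0.06 without array 3, -0.22 without array 4 and -0.35 with the signals corrected by the scanner software, which gave 0.45, -0.08, -1.12 and -0.63 on arrays 1 to 4. LIF (chromosome 22, 28966713 to 28966772) was detected in the treated channel of 0 arrays and in the control channel of arrays 3 and 4, so the treated cells have only an upper bound, and no fold is given. TNF (chromosome 6, 31653816 to 31653875) had log2 ratios of -0.02, 0.09, 0.09 and -0.23 on arrays 1 to 4, spread around 0, and was detected on array 4 only, there in both channels.

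**Figure D3:**
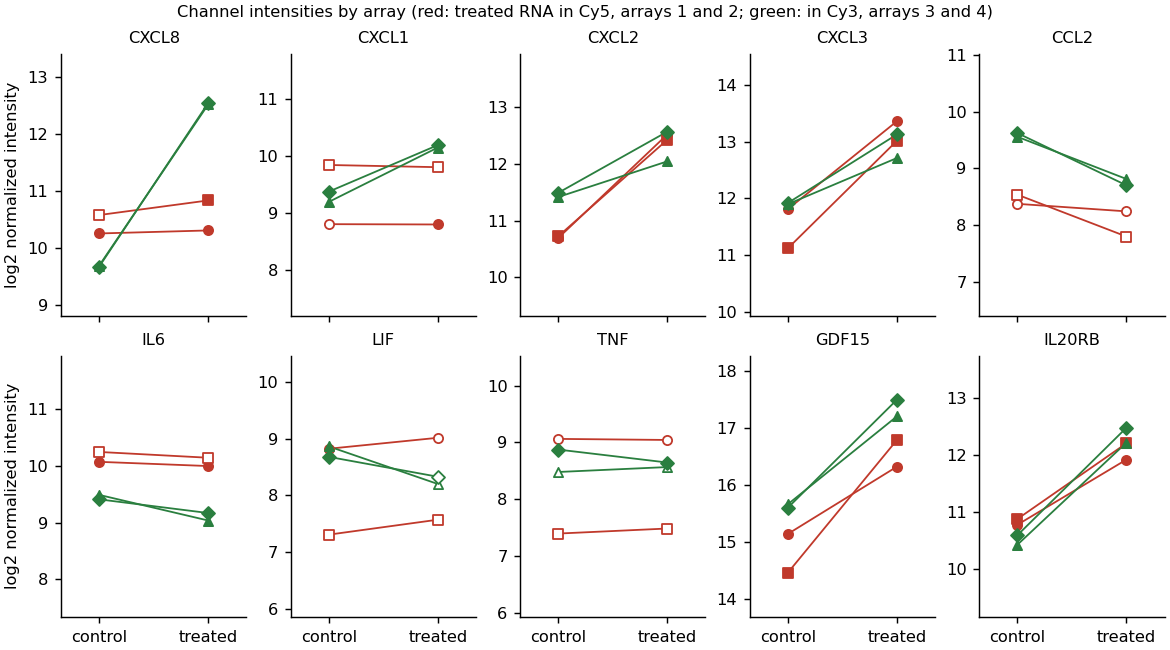
Log2 intensity after normalization in the control and treated channels (the 2 positions of each horizontal axis) for the 10 genes, with a line for each array, in red for arrays 1 and 2 and in green for arrays 3 and 4. Filled symbols were well above background and open symbols were not. The vertical axes span the same range but start at different levels, and LIF has no filled symbol in the treated position.

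In the wider interleukin-6 family list of ligands, receptors and JAK-STAT3 genes, 18 genes had a probe and 11 were tested, of which 1 was higher and 3 were lower, beside 24.3% higher and 13.0% lower over all probes. SOCS1, a feedback inhibitor of JAK kinases, fell by 0.37 on the log2 scale (limma adjusted p = 0.013), and IL11RA, the receptor chain of interleukin-11, had -0.29 ± 0.21 (SD, n = 4; limma adjusted p = 0.011). The other 2, named after their values were seen, were PIAS3, an inhibitor of STAT3, which was higher, and the kinase JAK2, which was lower. PIAS3 had 0.73 and 0.51 on arrays 1 and 2 and -0.10 and 0.07 on arrays 3 and 4, and JAK2 had -0.63 and -0.85 on arrays 1 and 2 and 0.09 and 0.26 on arrays 3 and 4. The called values of PIAS3 and JAK2 were thus those of the Cy5 arrays. The calls of SOCS1 (-0.24, limma adjusted p = 0.098) and IL11RA (-0.17, limma adjusted p = 0.128) were lost with median centring. STAT3 itself had 0.04 ± 0.10 (SD, n = 4; limma adjusted p = 0.66).

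GDF15 was higher in treated cells on every array and, after loess normalization, even between the orientations. Its log2 ratio was 1.18, 2.33, 1.55 and 1.90 on arrays 1 to 4, and the 2 orientations overlapped. The mean was 1.74 ± 0.49 (SD, n = 4), or 3.34-fold. Its probe (chromosome 19, 18360890 to 18360949) was bright in every channel without being marked as saturated. Mean intensities in the treated and the control channel were 119055 against 37000 on the first array, 149652 against 16999 on the second, 104670 against 61700 on the third and 107192 against 59414 on the fourth. The values depended on the normalization. With median centring in place of loess the log2 ratios were 1.67 and 2.76 on arrays 1 and 2 and 0.78 and 0.91 on arrays 3 and 4. The mean was then 1.53, below those of IL20RB (1.68) and CXCL8 (1.61). The direction was the same in both, and the signals corrected by the scanner software gave 2.35, 1.68 and 2.06 on arrays 2 to 4 and 0.997 on array 1, with a mean of 1.77.

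Of 32 further TGF-beta superfamily genes with a probe, the GDF15 receptor pair GFRAL and RET included, 10 were tested, and 1 was higher and 3 were lower, beside 24.3% higher and 13.0% lower over all probes. INHBE, which encodes a subunit of activin E, had a log2 ratio between 0.55 and 0.81 on the 4 arrays, and a mean of 0.70 ± 0.11 (SD; limma adjusted p = 0.00017). INHA, the alpha subunit of the inhibins, had -0.41 ± 0.25 (SD, n = 4; limma adjusted p = 0.0072), and GDF11, a regulator of late erythroid maturation in some models, -0.35 ± 0.10 (SD, n = 4; limma adjusted p = 0.0046). INHBE was detected in the treated channel of 3 arrays and in the control channel of 2, and its mean was 1.17 with the signals corrected by the scanner software. With these signals INHA, at -0.55, was not called (limma adjusted p = 0.055), and GDF11, at -0.22, was not with median centring (limma adjusted p = 0.065). The third lower gene, BMP8A, named after its values were seen, had a mixed sign over the arrays and a mean of -0.27.

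IL20RB was higher in treated cells on all 4 arrays, with the least spread among the 6 genes called higher. Its log2 ratio was 1.15, 1.33, 1.80 and 1.89 on arrays 1 to 4. The Cy3 arrays lay above the Cy5 arrays without overlap, by 0.61, with a limma adjusted p of 0.0055 for this difference. The mean was 1.54 ± 0.36 (SD, n = 4), or 2.91-fold. The probe (chromosome 3, 138212488 to 138212547) was detected everywhere, with mean intensities in the treated and the control channel of 4141 against 1842 on the first array, 6245 against 1642 on the second, 4628 against 1196 on the third and 5714 against 1532 on the fourth. With the signals corrected by the scanner software the ratios were 1.71, 1.72, 1.82 and 1.92 on arrays 1 to 4, nearly the same on each.

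The partners of IL20RB were not measurable. IL20RA, with which it forms the receptor of IL-19, IL-20 and IL-24, was not detected in any channel, and of 11 genes of the interleukin-10 and interleukin-20 families with a probe 8 were never detected. The 2 tested were named after their values were seen. IL10RA, the ligand-binding chain of the interleukin-10 receptor, had log2 ratios of 0.88 and 0.56 on arrays 1 and 2 and of -0.09 and -0.05 on arrays 3 and 4 (called higher, limma adjusted p = 0.010). IL10 had a mean of -0.21 and was detected in the treated channel of 0 arrays and in the control channel of 2. It met the filter through the control channel alone, so nothing is read from its being called lower. Among 30 other interleukins and colony stimulating factors with a probe 7 were tested, 2 were higher and 0 were lower. IL23A, the p19 subunit of interleukin-23, had 0.57 ± 0.27 (SD, n = 4; limma adjusted p = 0.00031) and was higher on every array. IL18, the other one and named after its values were seen, was higher on arrays 3 and 4 alone, with 0.80 and 0.85 against -0.28 and -0.23 on arrays 1 and 2.

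All 11 genes of the NF-kappaB list were tested. Of these 6 were higher and 0 were lower (median log2 ratio 0.26), beside 24.3% higher, 13.0% lower and a median of 0.02 over all probes. RELB, the subunit of the non-canonical pathway, had a log2 ratio of 1.36, 1.66, 1.16 and 1.37 on arrays 1 to 4. It was 2.62-fold higher at 1.39 ± 0.21 (SD, n = 4; limma adjusted p = 1.3e-05), and the orientations overlapped. RELB was not detected in both channels of every array. NFKBIE, which encodes the inhibitor IkB-epsilon, had 0.79 ± 0.18 (SD, n = 4; limma adjusted p = 8.3e-05), and NFKB2, the precursor of p52 and partner of RELB, had 0.61 ± 0.50 (SD, n = 4; limma adjusted p = 0.0058) with its highest value of 1.34 on array 2 and a mean of 0.39 without that array. NFKB2 was detected in the treated channel of 3 arrays and in the control channel of 2. The other 3 called higher had mixed signs over the arrays. The feedback inhibitors NFKBIA and TNFAIP3 had log2 ratios of 0.12 ± 0.36 and 0.09 ± 0.12 (SD, n = 4), with limma adjusted p-values of 0.23 and 0.35, and RELA had 0.14 ± 0.45 (adjusted p = 0.17).

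In the tumour necrosis factor superfamily 19 of 35 genes were tested, and 7 were higher and 4 were lower, beside 24.3% higher and 13.0% lower over all probes, with a median log2 ratio of 0.16. The death receptor gene TNFRSF10B was higher on every array, at 0.58 ± 0.27 (SD, n = 4; limma adjusted p = 0.00032). The costimulatory receptor gene TNFRSF9 had 0.53 ± 0.27, and its ligand gene TNFSF9 0.35 ± 0.35 (SD, n = 4), with limma adjusted p-values of 0.0035 for both. TNFRSF9 was detected in the treated channel of 3 arrays and in the control channel of 2. TNFSF9 had 0.65 and 0.64 on arrays 1 and 2 and 0.05 and 0.04 on arrays 3 and 4. TNFRSF1B, the second TNF receptor, had -0.06 and -0.18 on arrays 1 and 2 and -1.05 and -1.17 on arrays 3 and 4 (limma adjusted p = 0.00027). It was detected in the treated channel of 3 arrays and in the control channel of 3. TNFRSF8, which encodes CD30, had -0.37 ± 0.10 (SD, n = 4; limma adjusted p = 0.0038). TNFSF14, which encodes LIGHT, had -0.05, -0.19, -0.61 and -0.61 on arrays 1 to 4. It was dim, with detection in the treated channel of 1 array and in the control channel of 2. TNFSF14 met the filter through the control channel alone, so nothing is read from its being called lower. TNFRSF10A, the relative of TNFRSF10B that also binds TRAIL, was the remaining lower gene, at -0.31 ± 0.19 (SD, n = 4; limma adjusted p = 0.011), named after its values were seen. The remaining higher genes, named likewise, were TNFRSF21 at 0.61, RIPK1 at 0.32, CD40 at 0.32 and FAS at 0.27. TNFRSF21 had a mixed sign over the arrays, and the others were higher on every array.

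Of the proteins that bind AU-rich cytokine mRNAs, 9 were tested, and 1 was higher and 3 were lower, beside 24.3% higher and 13.0% lower over all probes. ZFP36, or tristetraprolin, which speeds the decay of such mRNAs, had a log2 ratio of 1.59, 1.42, 0.62 and 1.25 on arrays 1 to 4. It was 2.33-fold higher at 1.22 ± 0.42 (SD, n = 4; limma adjusted p = 7.9e-05). The 3 called lower, named after their values were seen, were ZFP36L2, ELAVL1 and TIA1, and each was below 0 on arrays 1 and 2 and not on both arrays 3 and 4. ZFP36L2 had -1.62 and -1.12 on arrays 1 and 2 and 0.67 and 0.25 on arrays 3 and 4.

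Over all lists together 207 of 216 genes had a probe, 104 of these were never detected and 81 were tested. Of the 81, 20 were higher and 15 were lower (median log2 ratio 0.05). This is 24.7% higher and 18.5% lower, against 24.3% and 13.0% of all probes. The 15 include IL10 and TNFSF14, which met the filter through the control channel alone. Without the dye term, RELB was the only one of the 18 named genes of these lists that was still called (limma adjusted p = 0.027). Without array 4, 11 genes of the lists were higher and 3 lower, and SOCS1, IL11RA, TNFSF9, TNFRSF8, INHA and GDF11 were no longer called, at limma adjusted p-values from 0.051 to 0.150. Without array 3, 13 were higher and 8 lower, and IL11RA was not called (limma adjusted p = 0.057).

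**Figure D4:**
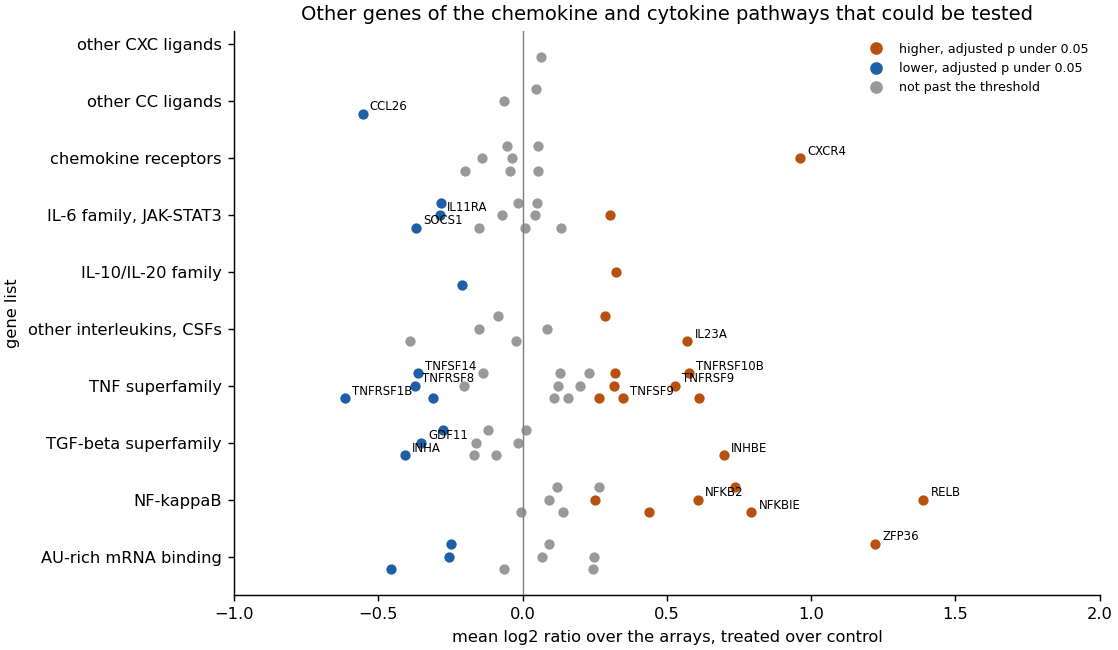
Mean log2 ratio of treated to control cells (horizontal axis) for the genes tested in each of 10 lists (vertical axis, points set apart for legibility), in orange where called higher, in blue where called lower and in grey otherwise, at a limma adjusted p under 0.05. RELB at 1.39 and ZFP36 at 1.22 are the highest, and TNFRSF1B at -0.62 is the lowest.

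The cells carried the markers of their label. Of 16 erythroid and K562 marker genes with a probe, 14 were detected in both channels on all 4 arrays, and 1 was higher and 8 were lower (median log2 ratio -0.24), beside 24.3% and 13.0% of all probes. The 3 lowest, named after their values were seen, are the extremes of this list. They do not stand for its other genes, and 7 genes of the list were not called. These 3 encode transcriptional regulators of the erythroid lineage. Log2 ratios were -1.31 for NFE2 (fitted with a standard error of 0.11, without its outlier spot on array 1; limma adjusted p = 0.00015), -1.16 ± 0.65 for GFI1B (SD, n = 4; limma adjusted p = 4.4e-05) and -1.03 ± 0.35 for LMO2 (SD, n = 4; limma adjusted p = 7.5e-05). GFI1B had -0.40, -0.83, -1.60 and -1.80 on arrays 1 to 4. The monocyte and macrophage list had 12 genes with a probe, of which 5 were never detected, 4 were detected throughout, 0 were higher and 1 was lower. Of 9 T and NK lymphocyte genes 1 was detected throughout, of 5 B lymphocyte genes 2 were, and of 9 fibroblast and endothelial genes 0 were. How far the lower erythroid markers move with the chemokine and cytokine values was not tested.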

How the data were processed

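Gene expression was measured on 4 two-colour arrays, each hybridised with RNA of treated and of control K562 cells. The authors scanned the arrays with an Agilent scanner, analysed the images with Feature Extraction 9.5.1.1 and deposited, for both channels, the spots' intensity and that of the local background. Their files also hold processed intensity values and a log10 ratio, and the deposited table of the series repeats that log10 ratio. After a sign change on arrays 3 and 4 it read treated over control, with 99.9% to 100% of 14297 values per array within 0.001.

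Normexp (offset 50) over all spots was used for background correction, and arrays were normalized by loess (span 0.3) without control spots. Spots with outlier flags were left out, from 1.57% to 8.08% of gene probes per array, and no spot was saturated. Ratios were fitted with limma 3.58.1 in R 4.3.3 with treatment and dye terms, on probes detected (well above background in either channel) on at least 2 arrays, with Benjamini-Hochberg adjustment and a threshold of 0.05. Standard errors rest on differences between arrays of the same dye orientation, while SDs are over all arrays. Over 4 arrays an exact sign-flip permutation test cannot give a two-sided p below 0.125.

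Accessions named 12002 of 14297 probes through RefSeq tables of GRCh38.p14, used for names and promoters, and 2295 went by the files' own names. The files give probe positions on hg18, and the part of the transcript under each probe was not analysed here. Of several probes of a gene the brightest was used. The 10 genes and the lists were chosen with earlier results of these data known. From each list, up to 3 genes higher and 3 lower were named by size of mean ratio among those called with the same sign on every array. Alternatives were other background corrections, normalizations, filters, terms, thresholds and sets of arrays.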

Additional observations from a re-analysis of the deposited data

How the results depend on the processing

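Of the tested genes of the set and the list genes named by rule, CXCL1 and LIF changed direction under an alternative. CXCL1 had a log2 ratio of -0.022 with arrays 1 and 2 only. LIF, not called over all arrays, had 0.23 there and -0.51 with arrays 3 and 4 only. On arrays 3 and 4 LIF was detected in the control channel alone, so nothing is read from its being called lower there. Genes named after their values were seen were not run under the alternatives, and several differ in sign between the orientations. Each gene named by rule had 1 probe, so a mean over probes was not run. Without the dye term 52 probes were higher and 4 lower, against 2155 and 1151, with 2 and 0 of the 10 genes and 1 and 0 genes of the pathway lists (20 and 15 with the term). The stricter threshold of 0.01 left 1354 higher and 468 lower probes, with 1 of the 10 genes and 7 pathway genes lower. With detection in both channels on all arrays, a filter that leaves fewer probes to test, 1342 probes and 10 pathway genes were higher. CCL2 and IL6 did not pass this filter and were not tested, so nothing is read from 0 of the 10 genes being lower there. Median centring left 596 probes, 1 of the 10 genes and 6 pathway genes lower. The processed signals, the series table and an intensity-dependent prior each left 1 of the 10 genes lower, CCL2. Fits to 1 orientation, chosen after seeing the data, cannot separate dye from treatment. With arrays 1 and 2 only 1325 probes were higher, 4 of the 10 genes higher (6 over all arrays, CXCL8 and CXCL1 being lost) and 0 lower, 8 pathway genes lower, and the median of the 9 genes was 0.23. With arrays 3 and 4 only 3392 probes were higher and 2781 lower. There 3 of the 10 genes, LIF included, and 30 pathway genes were called lower. Leaving out each array in turn gave 1010 to 2590 probes higher and 283 to 1469 lower, 11 to 26 pathway genes higher and 3 to 17 lower, and 1 to 2 of the 10 genes lower, the one not called being IL6, without array 3 or array 4. The lowest counts came without array 4. The cause was not tested. Averaging the arrays as dye-swap pairs gave 2130 or 2077 probes higher and 1112 or 1036 lower, by the pairing used. Every fit pairs treated with control RNA within each array. No further replicate block was fitted, as the sources do not say which cultures went on which array. Slide and scan could not be fitted as a block, since all arrays shared both. Detection on some arrays or channels alone limits what can be said of CXCL1, CCL2, LIF, TNF and several list genes, among them IL10, CXCL16, TNFSF14, CXCR4, INHBE, RELB, NFKB2, TNFRSF1B and TNFRSF9.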
